A study of Mus musculus with 8 samples.

Results

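The common gamma chain receptors are the surface receptors through which T cells sense interleukin-2, interleukin-4, interleukin-7, interleukin-9, interleukin-15 and interleukin-21. Transcripts of 8 of their subunits, namely Il7r, Il2ra, Il2rb, Il2rg, Il15ra, Il4ra, Il21r and Il9r, and of the 2 kinases that sit on them, Jak1 and Jak3, were measured in mouse CD8 T cells after CRISPR-Cas9 editing. The genes were taken by symbol, and all 10 were found among 49315 gene identifiers. The RNA came from OT-I CD8 T cells, cytotoxic T cells with a transgenic receptor for an ovalbumin peptide. The 4 Carm1 KO libraries came from cells nucleofected with a guide against Carm1, an arginine methyltransferase gene. The 4 Control KO libraries, whose genotype is labelled Control KO and WT, came from cells nucleofected with a guide against the bacterial gene LacZ. All cells carried the CD45.1 allele, started as naive CD8 T cells of spleen and inguinal lymph node, were grown with 50 ng/ml interleukin-15 plus 2.5 ng/ml interleukin-7, and gave RNA 7 days after editing. How old the mice were is not given in the sources used here. Edited cells were a bulk population and not a clone, and Carm1 protein loss was assessed by western blot, per the labels. The series text speaks of culture with B16F10-Ova melanoma cells, which the sample protocols do not mention for these libraries.

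Each of these receptors is built around the shared gamma chain, the product of Il2rg, and a private chain that gives it its ligand. Interleukin-7 is bound by the products of Il7r and Il2rg, and interleukin-15 by those of Il15ra, Il2rb and Il2rg. JAK3 docks on the gamma chain and JAK1 on its signalling partner, which for interleukin-2 and interleukin-15 is the Il2rb product. Together they phosphorylate STAT5 and other STAT factors. In CD8 T cells interleukin-7 is known for the upkeep of naive and memory cells, interleukin-15 for memory and killer cell survival, and interleukin-2 for expansion.

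The stretches of 250 bases before the start of 4 receptor genes are shown as examples from each direction described below: Il7r and Il2ra, which were higher in Carm1 KO libraries, Il2rg, which was lower, and Il21r, which had no stable direction. They come from RefSeq on GRCm38.p6, the assembly of mm10, and lie at chr15:9529877-9530126 (minus strand, Il7r), chr2:11642542-11642791 (plus strand, Il2ra), chrX:101268256-101268505 (minus strand, Il2rg) and chr7:125603179-125603428 (plus strand, Il21r). Capitals mark matches, on either strand, to 6 short motifs named below.
Il7r: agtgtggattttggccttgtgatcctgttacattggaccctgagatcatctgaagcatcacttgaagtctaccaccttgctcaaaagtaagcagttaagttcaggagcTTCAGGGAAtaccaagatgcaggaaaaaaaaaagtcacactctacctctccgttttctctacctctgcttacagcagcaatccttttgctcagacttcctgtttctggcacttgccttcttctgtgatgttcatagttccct
Il2ra: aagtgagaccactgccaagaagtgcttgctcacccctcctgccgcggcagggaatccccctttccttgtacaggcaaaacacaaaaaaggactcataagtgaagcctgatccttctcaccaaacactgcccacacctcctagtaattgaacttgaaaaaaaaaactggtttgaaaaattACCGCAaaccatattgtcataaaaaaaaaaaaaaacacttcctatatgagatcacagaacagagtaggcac
Il2rg: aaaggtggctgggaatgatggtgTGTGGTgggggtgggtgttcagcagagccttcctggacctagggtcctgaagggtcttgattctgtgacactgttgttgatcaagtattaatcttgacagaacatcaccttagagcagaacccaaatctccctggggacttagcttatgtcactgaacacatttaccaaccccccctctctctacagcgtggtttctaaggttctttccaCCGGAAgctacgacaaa
Il21r: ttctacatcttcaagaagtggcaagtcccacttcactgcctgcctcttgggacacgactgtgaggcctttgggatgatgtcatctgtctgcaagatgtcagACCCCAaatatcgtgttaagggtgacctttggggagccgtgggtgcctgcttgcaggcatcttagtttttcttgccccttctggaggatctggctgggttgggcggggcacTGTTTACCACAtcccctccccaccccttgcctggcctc

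The motifs searched were TTCNNNGAA (the site form of STAT factors), GTAAACA (FOXO), CCGGAA (ETS), TGNGGT (a loose RUNX form), TGANTCA (AP-1) and GGTGTGA (T-box). Of 32536 distinct windows of the same length before annotated starts, 7.04% held the STAT form, 3.17% the FOXO form, 12.1% the ETS form, 40.2% the RUNX form, 6.73% the AP-1 form and 3.33% the T-box form. The Il7r window held a single match, to the STAT form, from 142 to 134 bases before the start. The Il2ra window held a RUNX match and the Il2rg window a RUNX and an ETS match. The Il21r window held a FOXO match that overlapped a RUNX match. Farther from the start it held ACCCCA, which matches the loose RUNX form as TGGGGT on the other strand. RefSeq windows were matched for 9 of the 10 genes, and Il2rb was not among them. A match of letters is a description only.

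Library totals ran from 37556330 to 39988442 counts in Carm1 KO and from 38768760 to 41439998 counts in Control KO libraries, where 3 counts correspond to 0.0724 to 0.0799 CPM, the unit of counts scaled to library size. The replicates of an arm are technical per the labels, so every p-value below measures the spread between these libraries alone. An effect of the edit and another difference between the edited cultures cannot be told apart. Carm1 was at 32.8 ± 0.493 CPM in Carm1 KO and 95.9 ± 1.04 CPM in Control KO libraries (SD, n = 4 each). Cd8a, which marks the labelled cell type, was at 1973 CPM in Carm1 KO and 1573 CPM in Control KO libraries. The 9 CD8 T cell markers summed to 6837 to 7052 CPM in Carm1 KO and 4975 to 5088 CPM in Control KO libraries. By the test described below, 7 were higher and 2, Cd2 and Lck, lower, against 44.5% and 43.2% of all tested genes. Cd4 was at 0.782 CPM in Carm1 KO and 0.168 CPM in Control KO libraries. The 13 myeloid marker genes had a summed level of 7.67 to 8.67 CPM in Carm1 KO and 147 to 152 CPM in Control KO libraries. Of these, 5 genes (Cd14, Csf1r, Cybb, S100a8 and S100a9) reached the cutoff of the low-count filter used below in no Carm1 KO library, and S100a8, S100a9 and Lyz1 were at 0 in all Carm1 KO libraries. Mitochondrial genes held 1.09% to 1.13% of counts in Carm1 KO and 0.596% to 0.615% in Control KO libraries. The 8 B cell markers summed to 931 to 957 CPM in Carm1 KO and 274 to 281 CPM in Control KO libraries, most of it Ighm, while Igkc was at 0.306 CPM in Carm1 KO and 17.5 CPM in Control KO libraries. The 6 CD4 and regulatory T cell markers summed to 635 to 668 CPM in Carm1 KO and 92.5 to 95.1 CPM in Control KO libraries, most of it Ctla4. Foxp3, the defining factor of regulatory T cells, was at 2.43 CPM in Carm1 KO and 1.86 CPM in Control KO libraries. Dendritic cell markers summed to 469 to 487 CPM in Carm1 KO and 587 to 602 CPM in Control KO libraries. Nearly all of that was Ccr7, which T cells also express. Of the 6 tested, 3 were higher and 3 lower, against 44.5% and 43.2% of all tested genes. Among the lower, Flt3 reached the filter cutoff in no Carm1 KO library. Markers of NK and innate lymphoid cells summed to 53.0 to 55.3 CPM in Carm1 KO and 38.6 to 40.6 CPM in Control KO libraries. Most of that in Carm1 KO was Gata3, which T cells also express. Here 4 of the 6 tested were lower and 2 higher, against 43.2% and 44.5% of all tested genes. Of 7 melanoma markers, Tyr, Tyrp1, Dct and Sox10 were at 0 in all 8 libraries, whereas Pmel was at 12.7 CPM in Carm1 KO and 3.43 CPM in Control KO libraries and Mitf at 1.91 CPM in Carm1 KO and 0.788 CPM in Control KO libraries. The part of other cell types and of the mitochondrial share in the levels below was not tested. In bulk RNA, fewer cells that express a gene and less of its RNA per cell cannot be told apart.

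Interleukin-7 receptor transcripts were higher and interleukin-2 receptor beta and gamma chain transcripts were lower in Carm1 KO libraries. Il7r differed most among the well-expressed genes of the family, at 3.32-fold higher, and Il2rb most in the other direction, at 2.34-fold lower. Jak1 and Jak3, the kinases, were 1.46-fold and 1.27-fold higher. Il9r passed the low-count filter through its Carm1 KO libraries alone, since none of its Control KO libraries reached 0.256 CPM, so it is described by its counts and left out of the counts of calls. By edgeR's quasi-likelihood test, 5 of the other 9 genes were higher and 4 were lower at an adjusted p under 0.05, where 44.5% and 43.2% of all 14970 tested genes were, 87.7% together. Such a count is near the background and is no result about the family, and the size and direction of each gene carry the description that follows. The median size of the log2 fold change over all tested genes was 0.687. Among the 9 genes, Il7r and Il2rb exceeded it, and the others, Il2rg, Jak1 and Jak3 among them, differed less. With a fold of at least 2 as well, 1 of the 9 was higher (Il7r) and 1 was lower (Il2rb), against 20.5% and 15.2% of tested genes. The groups did not overlap for 8 of the 9 genes, against 83.4% of all tested genes.

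**Figure D1:**
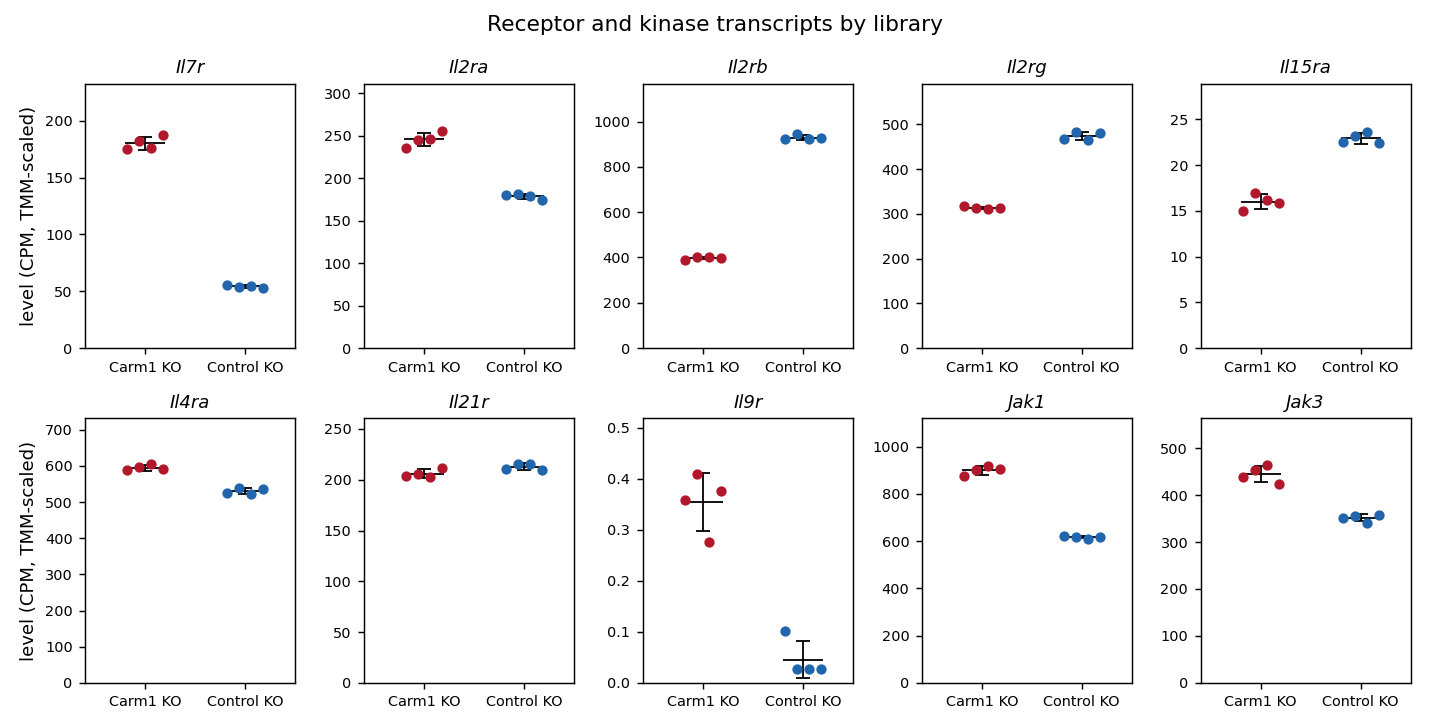
Level of each of the 10 genes in each library, as TMM-scaled CPM on an axis from 0. Points are the 4 Carm1 KO (red) and 4 Control KO (blue) libraries, and bars are the mean and SD. The groups lie apart for every gene but Il21r, with Il7r at 175 CPM or more in Carm1 KO and 55.6 CPM or less in Control KO libraries.

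Il7r encodes the alpha chain that binds interleukin-7. It is ENSMUSG00000003882, on chromosome 15 from 9506161 to 9529876 on the minus strand (mm10, as are all gene positions here). Its level was 175, 182, 176 and 187 CPM in the Carm1 KO libraries, against 55.6, 53.8, 54.4 and 53.1 CPM in the Control KO libraries. All 4 Carm1 KO libraries lay far above all 4 Control KO libraries. The log2 fold change was 1.73 ± 0.0266 (SE; edgeR quasi-likelihood test, adjusted p = 1.3e-39), and 82.6% of tested genes had a change of that size or less.

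Il2rb encodes the beta chain shared by the interleukin-2 and interleukin-15 receptors (ENSMUSG00000068227, chromosome 15, 78480553 to 78495066, minus strand). It was at 391, 401, 400.3 and 396 CPM in the Carm1 KO libraries, against 921, 945, 924 and 927 CPM in the Control KO libraries. No Carm1 KO library was above 401 CPM and no Control KO library was below 921 CPM. The log2 fold change was -1.23 ± 0.0212 (edgeR, adjusted p = 7.7e-38).

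Il2rg encodes the common gamma chain itself (ENSMUSG00000031304, chromosome X, 101264378 to 101268255, minus strand). Its level was 317, 312, 310.0 and 312 CPM in the Carm1 KO libraries, against 468, 484, 465 and 481 CPM in the Control KO libraries. The groups were well apart, with a log2 fold change of -0.60 ± 0.0217 (edgeR, adjusted p = 2.1e-26), a 1.52-fold lower level. Of all tested genes, 45.0% had a change of that size or less. A predicted gene on the same strand, Gm20489, shares 728 exon bases with Il2rg and had at most 1 count in a library, so reads of the shared stretch could have been split or dropped.

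Il2ra and Il15ra encode the alpha chains that bind interleukin-2 and interleukin-15, and the genes follow each other on the plus strand of chromosome 2 with 12096 bases and no other gene between them. Il2ra (ENSMUSG00000026770, 11642807 to 11693193) was at 236, 245, 246 and 255 CPM in the Carm1 KO libraries, against 179.5, 181, 179 and 174 CPM in the Control KO libraries. Its log2 fold change was 0.46 ± 0.0237 (edgeR, adjusted p = 4.6e-21). Il15ra (ENSMUSG00000023206, 11705290 to 11734317) was at 14.996, 17.0, 16.2 and 15.8 CPM in the Carm1 KO libraries, against 22.5, 23.2, 23.7 and 22.4 CPM in the Control KO libraries. Its log2 fold change was -0.52 ± 0.0452 (edgeR, adjusted p = 9.3e-14). These neighbouring genes thus differed in opposite directions, and each left the groups apart.

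Il4ra and Il21r, the private chain genes of the interleukin-4 and interleukin-21 receptors, also stand side by side, on the plus strand of chromosome 7 with 23954 bases and no other gene between them. Il4ra (ENSMUSG00000030748, 125552120 to 125579474) was at 588, 598, 606 and 591 CPM in the Carm1 KO libraries, against 526, 539.6, 522 and 536 CPM in the Control KO libraries. That is a small difference that still left the groups apart, with a log2 fold change of 0.17 ± 0.0213 (edgeR, adjusted p = 3.5e-09). An antisense predicted gene, Gm44876, shares 571 exon bases with Il4ra and had at most 3 counts in a library. Because the library kit does not mark strand, their reads cannot be told apart.

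Il21r (ENSMUSG00000030745, 125603429 to 125633570) was at 204, 205, 203 and 212 CPM in the Carm1 KO libraries, against 210.4, 216, 216 and 209 CPM in the Control KO libraries. The groups overlapped, since 1 Carm1 KO library lay above 2 of the Control KO libraries. The log2 fold change was -0.05 ± 0.0224 (edgeR, adjusted p = 0.048), and 3.72% of tested genes had a change of that size or less. The sign turned with upper-quartile factors (0.17, edgeR adjusted p = 8.7e-09), with unadjusted library totals (0.11, adjusted p = 2.2e-05) and with a filter of 5 CPM (0.046, adjusted p = 0.039). The call was lost without any single one of Carm1 KO replicates 1, 2 and 3 and Control KO replicates 2 and 3 (adjusted p = 0.051 to 0.10, values -0.053 to -0.043). No direction is therefore given for Il21r.

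Il9r encodes the private chain of the interleukin-9 receptor (ENSMUSG00000020279, chromosome 11, 32187541 to 32200279, minus strand) and was close to the limit of the depth. It had 15, 17, 11 and 15 counts in the Carm1 KO libraries, against 4, 1, 1 and 1 counts in the Control KO libraries, of which 3 were under the floor of 3 counts. The summed counts, 58 in Carm1 KO and 7 in Control KO, gave a ratio of 8.49 on library totals, with a 95% exact (Clopper-Pearson) interval of 3.87 to 22.04 that covers counting error only. Without Control KO replicate 1, which held 4 of those 7 counts, the ratio was 14.6 (4.76 to 72.9). The fitted log2 fold change was 2.84 ± 0.447 (SE) and 3.55 without that library, and its p is not given because the filter favoured a gene high in Carm1 KO. At a mean of 0.355 CPM in Carm1 KO and 0.0457 CPM in Control KO libraries, it was a trace transcript in each group.

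The JAK1 kinase docks on the signalling partner of the gamma chain and also serves interferon and interleukin-6 family receptors. Its gene, Jak1, is ENSMUSG00000028530 (chromosome 4, 101152367 to 101265282, minus strand). It was at 875, 902, 917 and 906 CPM in the Carm1 KO libraries, against 621, 616, 610.3 and 616 CPM in the Control KO libraries. The groups lay well apart, with a log2 fold change of 0.55 ± 0.0211 (edgeR, adjusted p = 2.3e-25), and 41.6% of tested genes had a change of that size or less.

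Jak3 encodes the kinase that binds the gamma chain (ENSMUSG00000031805, chromosome 8, 71676296 to 71690575, plus strand). It was at 439, 454, 463 and 424 CPM in the Carm1 KO libraries, against 350.1, 356, 342 and 358 CPM in the Control KO libraries. The log2 fold change was 0.34 ± 0.0243 (edgeR, adjusted p = 6.2e-16), with no overlap between the groups. A change of that size or less was seen in 27.6% of tested genes. Insl3, a hormone gene on the same strand, shares 404 exon bases with Jak3 and had 318 to 357 counts in Carm1 KO and 169 to 195 counts in Control KO libraries, and the counts of the shared stretch are uncertain.

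**Figure D2:**
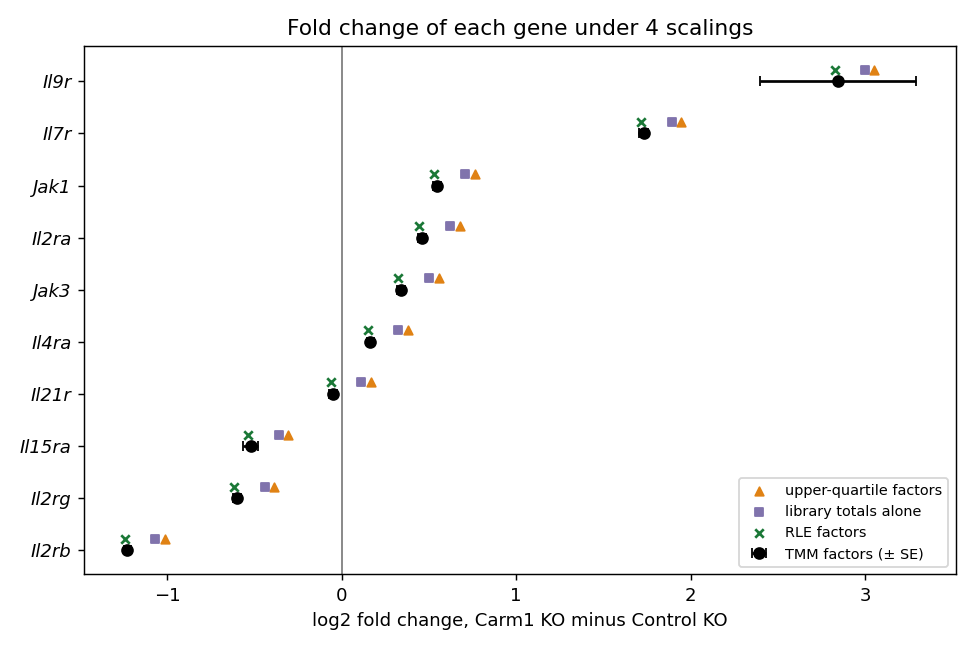
Log2 fold change, Carm1 KO minus Control KO, of each gene, with TMM factors (black, bar for SE) and with 3 other scalings of the libraries. Upper-quartile factors move every gene to the right, which turns the sign of Il21r (-0.05 to 0.17) and of no other gene shown.

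The scaling of the libraries moved all genes together. The median log2 fold change over the tested genes moved by 0.215 with upper-quartile factors and by 0.160 with unadjusted library totals, and 61.0% and 58.4% of the passing genes were then higher, against 50.8% with TMM factors. The difference of Il4ra, 0.17, was smaller than the upper-quartile shift and close to the other, but kept its sign, at 0.14 to 0.38 over 8 alternatives. Il2rb stayed at -1.25 to -1.01, Il2rg at -0.63 to -0.38 and Il15ra at -0.55 to -0.31 over the same alternatives. Il7r stayed at 1.70 to 1.95, Jak1 at 0.52 to 0.76, Il2ra at 0.43 to 0.68 and Jak3 at 0.31 to 0.56.

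Ratios of partner transcripts within a library need no scaling between libraries, and 9 pairs were compared. The size of such a ratio of counts also depends on the lengths of the genes, so only its difference between groups is described. The Il9r pair is described by its values without a p, since Il9r passed the low-count filter through Carm1 KO libraries alone. In each other pair the groups did not overlap, and an exact two-sided permutation test gave p = 0.0286 (0.0286 adjusted over all 9 pairs). That is the smallest p that 4 against 4 libraries allow. The background was as high, since 86.5% of 14584 tested genes with counts in every library did not overlap between groups in their ratio to Il2rg, 92.8% in that to Il2rb and 84.2% in that to Jak1.

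The count of Il7r per count of Il2rg was 0.553, 0.582, 0.567 and 0.599 in the Carm1 KO libraries, against 0.119, 0.111, 0.117 and 0.110 in the Control KO libraries, a 5.03-fold higher ratio. Il7r thus differed more relative to its partner chain than in its own level. The ratio of Il2rb to Il2rg, the signalling pair for interleukin-2 and interleukin-15, was 1.27 ± 0.0265 in Carm1 KO and 1.96 ± 0.0254 in Control KO libraries, 1.54-fold lower (SD, n = 4 each, exact permutation p = 0.0286). The Il4ra ratio to Il2rg was 1.90 ± 0.0429 in Carm1 KO and 1.12 ± 0.00472 in Control KO libraries. The Il21r ratio to Il2rg was 0.658 ± 0.0154 in Carm1 KO and 0.449 ± 0.0119 in Control KO libraries. Unlike the level of Il21r (log2 fold change -0.05), this ratio left the groups apart. Its denominator, Il2rg, was lower (-0.60), so a gene with an unchanged level also gives a higher ratio.

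The ratios of both alpha chain transcripts to Il2rb were higher in Carm1 KO libraries. That of Il2ra to Il2rb was 0.618 ± 0.0177 in Carm1 KO and 0.192 ± 0.00324 in Control KO libraries, 3.22-fold higher. The ratio of Il15ra to Il2rb was 0.0403 ± 0.00166 in Carm1 KO and 0.0247 ± 0.000629 in Control KO libraries, 1.63-fold higher, although the level of Il15ra itself was lower. Among the kinases, the ratio of Jak3 to Jak1 was 0.502, 0.503, 0.506 and 0.468 in the Carm1 KO libraries, against 0.563, 0.578, 0.560 and 0.581 in the Control KO libraries, 1.15-fold lower. Relative to its docking chain, the ratio of Jak3 to Il2rg was 1.42 ± 0.0629 in Carm1 KO and 0.741 ± 0.00699 in Control KO libraries. The ratio of Il9r to Il2rg was 0.00113 ± 0.000179 in Carm1 KO and 9.7e-05 ± 7.98e-05 in Control KO libraries, and rests on very few counts.

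**Figure D3:**
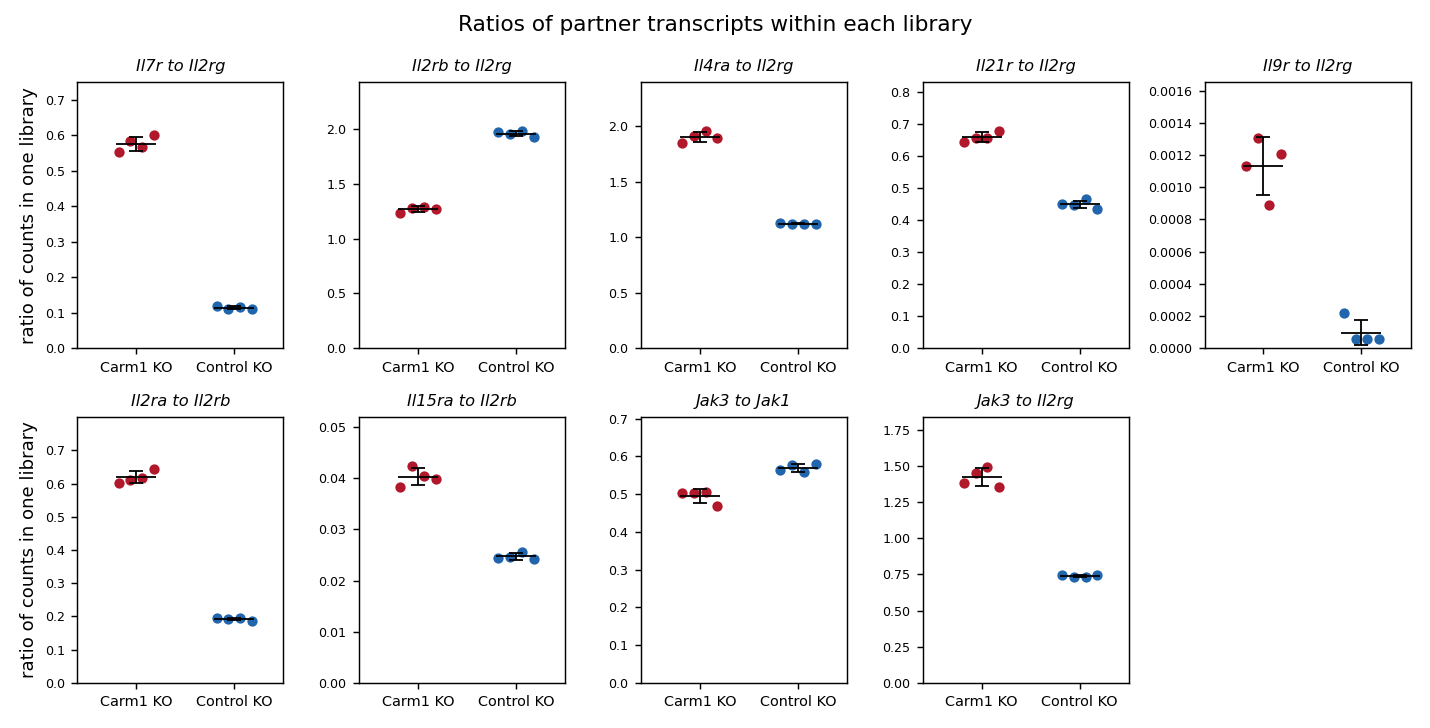
Ratio of the counts of 2 partner genes in the same library, for 9 pairs, in Carm1 KO (red, left) and Control KO (blue, right) libraries, with mean and SD. The ratios of Il2rb to Il2rg and of Jak3 to Jak1 lie lower in Carm1 KO libraries and the other 7 lie higher.

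Levels of different genes were compared per gene length, as TPM (counts per base of gene length, scaled to a common total). In Carm1 KO libraries the order ran from Il2rb (367 ± 16.9 TPM) through Il2rg (337 ± 9.81), Jak1 (321 ± 16.2), Il4ra (255 ± 12.3), Jak3 (214 ± 15.4), Il21r (159 ± 4.90), Il7r (144 ± 5.96) and Il2ra (111 ± 5.44) to Il15ra (9.27 ± 0.773) and Il9r (0.184 ± 0.0295). In this order Il2rg and Jak1 overlapped between libraries and no other neighbours did. In Control KO libraries it ran from Il2rb (829 ± 10.4 TPM) through Il2rg (494 ± 11.4), Il4ra (220 ± 4.63), Jak1 (212 ± 4.86), Jak3 (163 ± 4.91), Il21r (159 ± 0.881), Il2ra (77.7 ± 1.32) and Il7r (41.99 ± 1.29) to Il15ra (12.8 ± 0.172) and Il9r (0.0231 ± 0.0191). There Il4ra overlapped with Jak1, and Jak3 with Il21r. Il2rb and Il2rg led in each group, while Il7r stood above Il2ra in Carm1 KO and below it in Control KO libraries. That order depends on the length used. With the median length of coding transcripts in place of gene length, Il4ra, whose median was 491 bases, came first in each group, and Il7r (66.3 TPM in Carm1 KO and 18.4 TPM in Control KO) was below Il2ra (118 TPM in Carm1 KO and 78.9 TPM in Control KO) in both.

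**Figure D4:**
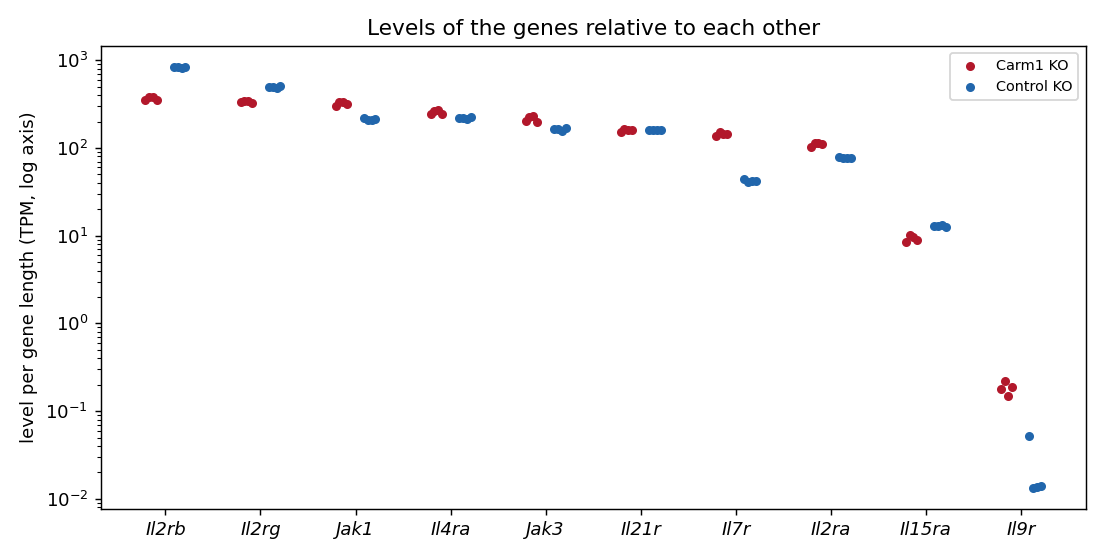
Level per gene length (TPM, log axis) of the 10 genes, ordered by their mean in Carm1 KO libraries, with 4 Carm1 KO (red) and 4 Control KO (blue) libraries per gene. The receptor chains span from about the level of Il2rb (367 TPM in Carm1 KO, 829 TPM in Control KO) to the trace level of Il9r.

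With the deposited lengths, the make-up of the receptor transcripts also differed. The 8 receptor genes summed to 1384 ± 52.7 TPM in Carm1 KO and 1835 ± 26.1 TPM in Control KO libraries (SD, n = 4 each). Il2rb held 26.5% ± 0.235 of that sum in Carm1 KO and 45.2% ± 0.108 in Control KO libraries. Il7r held 10.4% ± 0.256 in Carm1 KO and 2.29% ± 0.0652 in Control KO libraries, and Il4ra held 18.5% ± 0.258 in Carm1 KO and 11.98% ± 0.0897 in Control KO libraries. The share of Il2rg was closer between groups, at 24.4% ± 0.409 in Carm1 KO and 26.9% ± 0.288 in Control KO libraries. The shares add to the whole and are not independent of each other. The sum had no stable direction. With median coding lengths it was 2416 ± 80.3 TPM in Carm1 KO and 2389 ± 29.3 TPM in Control KO libraries, where the groups overlapped. Il4ra then held 65.2% ± 0.398 in Carm1 KO and 54.3% ± 0.175 in Control KO libraries, Il2rb 7.01% ± 0.0306 in Carm1 KO and 15.3% ± 0.102 in Control KO libraries, and Il7r 2.74% ± 0.0876 in Carm1 KO and 0.771% ± 0.0239 in Control KO libraries. These 3 shares kept their direction between groups, and their sizes did not. The share of Il2rg was then farther apart, at 14.8% ± 0.275 in Carm1 KO and 21.0% ± 0.139 in Control KO libraries.

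Within a group the libraries lay close. The SD was 1.00% to 5.18% of the mean in Carm1 KO and 0.730% to 2.63% in Control KO libraries for the 9 genes other than Il9r. Of the Carm1 KO libraries, replicate 4 had the highest Il7r, Il2ra and Il21r and the lowest Jak3. It also differed most from the other libraries of its group over all genes, by 7.79 to 13.5 chi-square per degree of freedom, where the other Carm1 KO pairs gave 2.61 to 6.42. Leaving it out gave no lost call among the 10 genes.

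Genes whose profile over the 8 libraries was most like that of a family member were found by Euclidean distance between log2 CPM centred on each gene's mean, among 8477 other genes of at least 10 CPM. Nearest to Il7r were Ogt (distance 0.0834), which encodes a sugar transferase acting on nuclear proteins, and Pts (0.0948), an enzyme gene of tetrahydrobiopterin synthesis. Nearest to Il2rb were Sf3a2 (0.0356) and Cstf2 (0.0557), genes of RNA splicing and 3′ end formation. Il2rg was nearest to Vsir (0.0399), which encodes the inhibitory ligand VISTA, and to Rftn1 (0.0399), and Jak3 to Tmc8 (0.0341) and Pcnx3 (0.0620). Nearest to Jak1 were Pcf11 (0.0424) and Mmgt2 (0.0467), and to Il2ra S100pbp (0.0449) and C2cd5 (0.0575). These profiles share libraries, depth and the split of the groups, which most genes show.

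The cytokines themselves were scarcely transcribed. Of the 6 genes Il2, Il4, Il7, Il9, Il15 and Il21, a single one, Il15, passed the count filter, at 0.537 ± 0.107 CPM in Carm1 KO and 0.379 ± 0.151 CPM in Control KO libraries (log2 fold change 0.50 ± 0.265, edgeR adjusted p = 0.076). The 6 summed to 0.677 to 1.10 CPM in Carm1 KO and 0.434 to 0.785 CPM in Control KO libraries. Crlf2, whose product joins the interleukin-7 receptor alpha chain in the receptor for thymic stromal lymphopoietin, was lower at 41.6 ± 1.41 CPM in Carm1 KO and 55.2 ± 0.888 CPM in Control KO libraries (adjusted p = 1.1e-15). Il13ra1, which pairs with the interleukin-4 receptor alpha chain in non-lymphoid cells, had 1, 4, 0 and 0 counts in the Carm1 KO libraries, against 37, 42, 38 and 32 counts in the Control KO libraries. It moved with the myeloid markers (summed 7.67 to 8.67 CPM in Carm1 KO and 147 to 152 CPM in Control KO), whose part in it was not tested.

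Downstream of the receptors, 4 of 9 other JAK and STAT genes were higher, 4 were lower and 1 did not pass. That is near the 44.5% and 43.2% of all tested genes. The median log2 fold change was 0.01, against 0.02 over all tested genes. With upper-quartile factors, and also with unadjusted library totals, 6 were higher and 3 lower. The STAT5 genes parted. Stat5b was at 230.0 ± 6.85 CPM in Carm1 KO and 177 ± 2.06 CPM in Control KO libraries (log2 fold change 0.38 ± 0.0231, edgeR adjusted p = 1.7e-18). Stat5a was at 78.5 ± 1.69 CPM in Carm1 KO and 117 ± 1.89 CPM in Control KO libraries (-0.58 ± 0.0248, edgeR adjusted p = 7.3e-24). The pair has similar sequences, which makes the split of their reads uncertain. Stat3, used by interleukin-21, was lower (-0.84 ± 0.0222) and Stat4, used by interleukin-12, was higher (1.31 ± 0.0231). Jak2 and Tyk2, which serve other cytokine receptors, were higher, by 0.79 ± 0.0236 and 0.47 ± 0.0272 on the log2 scale. Stat6, used by interleukin-4, gave -0.10 ± 0.0214 with TMM factors but 0.11 when scaled by upper quartiles.

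Negative regulators were lower in 10 and higher in 5 of 18 genes tested, with 3 not passed and a median log2 fold change of -0.20, where 43.2% of all tested genes were lower and 44.5% higher. With upper-quartile factors, and also with unadjusted library totals, 9 were higher and 9 lower. Among the most abundant, the feedback inhibitors Socs1 and Socs3 were 2.46-fold and 2.79-fold lower and the phosphatases Ptpn6 and Ptpn1 2.26-fold and 2.02-fold lower. Ptprc, the CD45 phosphatase gene, was 1.66-fold higher and the ubiquitin ligase gene Cblb 2.69-fold higher. Of 15 tested adaptors and links to PI3K and MAP kinases, 9 were lower and 4 higher (median -0.08), against 43.2% and 44.5% of all tested genes. Fyn and Ptpn11 were 1.54-fold and 1.63-fold lower. Lck, Ptk2b and Grb2 gave -0.11, -0.05 and -0.08 with TMM factors but 0.11, 0.16 and 0.14 with upper-quartile factors, and 9 genes of that list were then higher and 4 lower.

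Of 16 genes known as STAT5 or survival targets 14 were lower and 2 higher, where 43.2% of all tested genes were lower and 44.5% higher. Named for their direction, the 2 higher were Cdkn1b (log2 fold change 1.40) and Bcl2l11 (0.21). The list was not divided by the direction in which its genes are known to respond. The median log2 fold change was -1.80, against 0.02 over all tested genes. Bcl2, the survival gene maintained by interleukin-7 and interleukin-15, was at 106 ± 3.28 CPM in Carm1 KO and 798 ± 8.23 CPM in Control KO libraries. Pim2 and Pim1, kinases induced by STAT5, were 5.69-fold and 3.63-fold lower, Ccnd2, a cyclin gene, 2.49-fold lower, and Mcl1 gave -0.11 with TMM and 0.10 with upper-quartile factors. Members of this list are also known to respond to antigen receptor signals, and the list was chosen with earlier results of these data known.

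Transcription factors reported to act on Il7r, Il2ra or Il2rb were higher in 11 and lower in 5 of 18 genes. Of all tested genes, 44.5% were higher and 43.2% lower, and the share of calls was near their 87.7%. The median log2 fold change was 0.27, against 0.02 over all tested genes. With upper-quartile factors, which moved all genes up, 13 were higher and 4 lower. Foxo1, an activator of Il7r, was at 189 ± 2.13 CPM in Carm1 KO and 107 ± 2.37 CPM in Control KO libraries, 1.76-fold higher. Ets1, Nfkb1, Elf1 and Runx3 were 1.27-fold, 1.40-fold, 1.14-fold and 1.75-fold higher, and Foxp1, a factor that opposes Foxo1 at Il7r, was at 203 ± 7.26 CPM in Carm1 KO and 199 ± 1.91 CPM in Control KO libraries (adjusted p = 0.35). Chosen after their values were seen, Gfi1, a repressor of Il7r, was higher, at 128 ± 4.49 CPM in Carm1 KO and 23.6 ± 0.624 CPM in Control KO libraries. Eomes, another factor of this list, was lower, at 17.7 ± 1.07 CPM in Carm1 KO and 173 ± 4.71 CPM in Control KO libraries. The part of any of these factors in the levels of Il7r, Il2ra and Il2rb was not tested. Il7r, its activator Foxo1 and its repressor Gfi1 were thus all higher.

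**Figure D5:**
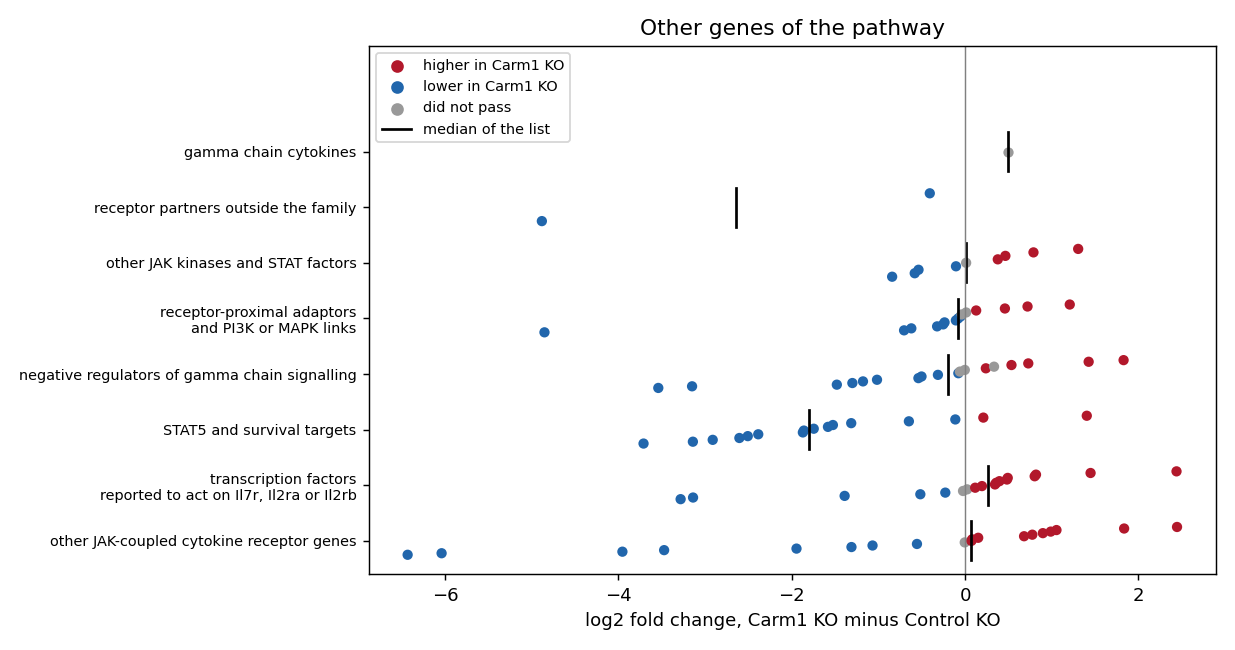
Log2 fold change, Carm1 KO minus Control KO, of the tested genes of 8 pathway lists, each point a gene, coloured by its call with TMM factors and with a black line at the list median. The STAT5 and survival targets have a median of -1.80, while the medians of the 5 other lists with more than 2 tested genes lie between -0.20 and 0.27.

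Receptor genes outside the family that also signal through JAK kinases were higher in 10 and lower in 8 of 19 tested genes, near the 44.5% and 43.2% of all tested genes, with a median log2 fold change of 0.07. Of the 8, 2 reached the low-count cutoff in no Carm1 KO library. The interferon receptor genes Ifngr1, Ifnar1 and Ifnar2 were 1.60-fold, 1.71-fold and 1.86-fold higher. Il6st, the shared chain of the interleukin-6 family, was 2.48-fold lower and Il27ra 1.47-fold lower. Il12rb2 was at 178 ± 9.16 CPM in Carm1 KO and 179 ± 3.87 CPM in Control KO libraries (adjusted p = 0.90). The shared chain genes of the gamma chain and interleukin-6 families were thus both lower, by 0.60 and 1.31 on the log2 scale, in libraries with more Jak1.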

How the data were processed

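Whole-number counts per Ensembl gene were used as deposited. The authors quantified genes with RSEM, per the labels' protocols, and mm10 is the build in the submitters' processing notes. Not given in the sources used here are the aligner, the annotation release, the strand setting and how RSEM's estimates became whole numbers. The gene length column was also used as deposited. Libraries were made with a poly(A) kit that does not mark strand from RNA with an integrity number above 9.5, and read as 150 bp pairs. Of 49315 identifiers 48970 were given a symbol from a table of Ensembl names, and those without one held at most 0.0535% of counts. Groups follow the source names and replicate numbers the titles. Replicate pairs differed by 1.45 to 13.5 chi-square per degree of freedom, so none was taken as a copy.

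Genes passing edgeR's filterByExpr (14970) were scaled with TMM factors (1.05 to 1.07 in Carm1 KO and 0.938 to 0.953 in Control KO libraries) and tested by robust two-sided quasi-likelihood F tests (edgeR 4.0.16, R 4.3.3), with Benjamini-Hochberg adjustment over all of them and a threshold of 0.05. The SE is the log2 fold change divided by the square root of F. The step was tested on simulated data of 14970 genes. It recovered 33 of 50 genes changed 1.25-fold and 43 of 50 changed 1.5-fold. At 2-fold and 4-fold it recovered 46 and 45 of 50, and 9 calls were false. Ratios within libraries were compared by exact permutation tests. Named genes were all 10 family members and, with exceptions stated, up to 6 of the most abundant tested genes per pathway list. More were named of the JAK and STAT genes. Marker genes were named for their level, their part in a sum, the filter or their absence. The 2 nearest profiles are given for Il7r, Il2rb, Il2rg, Jak3, Jak1 and Il2ra only. The members and lists were chosen with earlier results of these data known. Alternatives were RLE and upper-quartile factors, library totals, no filter or 5 CPM in 4 libraries, DESeq2 1.42.0, limma-voom (limma 3.58.1), the replicate number as a block and each library left out.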

Additional observations from a re-analysis of the deposited data

Results flagged for a closer look

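In 3 of 38 sets of 4 libraries, formed by the CPM of 10 genes and 9 ratios in each group, a single library lay far from the others by Dixon's criterion, which chance gives in about 1 of 20 sets. Il9r was at 0.101 CPM in Control KO replicate 1, with the other 3 Control KO libraries at 0.0271 to 0.0273 CPM, which is 4 counts against 1 count each. The ratio of Il9r to Il2rg in that library, 0.000217, rests on the same 4 counts. The ratio of Jak3 to Jak1 was 0.468 in Carm1 KO replicate 4, with the other 3 Carm1 KO libraries at 0.502 to 0.506, and without it the log2 difference between groups was -0.18.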

How the results depend on the processing

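Over 8 alternatives and 8 fits that each left out a library, the 8 family genes other than Il9r and Il21r kept their direction and their call. Il9r kept its direction and had no value at 5 CPM. Il21r reversed to 0.17 with upper-quartile factors, 0.11 with unadjusted library totals and 0.046 with the filter of 5 CPM, and was -0.047 with the replicate block (adjusted p = 0.10). Leaving out a library gave Il21r values from -0.067 to -0.043, with adjusted p from 0.0066 to 0.10, and the call was lost in 5 of the 8 fits. Without a low-count filter 28269 genes were tested.

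Counts of the pathway lists moved as follows. Of the cytokine genes 1 was higher with upper-quartile factors, with library totals and with no filter, 1 was lower with no filter, and 0 to 1 were higher without a library (1 without Control KO replicate 1 and 1 without Control KO replicate 4). Adaptor genes were 9 higher and 4 lower with upper-quartile factors, and 9 higher and 5 lower with library totals. Negative regulators were 9 higher and 9 lower with each of these scalings. With the filter of 5 CPM, 1 receptor partner and 5 other JAK-coupled receptor genes were lower. The other 116 of 128 counts under these alternatives stayed within 1.5 times.

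Same-numbered libraries correlated at -0.0848 to -0.0509 in their deviations from the group means, so the numbers do not pair the libraries. With the replicate block 6611 genes were higher and 6420 lower, and an exact sign-flip permutation test of the ratios, which cannot go below p = 0.125, gave log2 differences of 2.33 for Il7r to Il2rg, -0.63 for Il2rb to Il2rg, 0.77 for Il4ra to Il2rg, 0.55 for Il21r to Il2rg, 3.81 for Il9r to Il2rg, 1.69 for Il2ra to Il2rb, 0.70 for Il15ra to Il2rb, -0.21 for Jak3 to Jak1 and 0.94 for Jak3 to Il2rg. With median coding transcript lengths the levels in Carm1 KO and Control KO libraries became 66.3 and 18.4 TPM for Il7r, 169 and 366 TPM for Il2rb, 13.5 and 17.8 TPM for Il15ra, 1575 and 1296 TPM for Il4ra, 115 and 109.8 TPM for Il21r, 439 and 277 TPM for Jak1, and 144 and 105 TPM for Jak3. In Carm1 KO libraries they became 118 TPM for Il2ra, 359 TPM for Il2rg and 0.262 TPM for Il9r. The alternative length itself sets these values. Depth limits Il9r and the cytokine genes, which lie within a few counts of the floor.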
